A study of Homo sapiens with 4 samples.

Results

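NRF2, encoded by NFE2L2, and 8 of its classical antioxidant target genes were followed in HCT116 cells, an established human colorectal cancer line, after transfection of an antisense oligonucleotide (ASO) directed at GAA repeats in RNA. The 9 genes were chosen by symbol and found in the count table through their Ensembl identifiers, which gave 9 of the 63677 genes counted. The anti-GAA ASO and the control ASO were each transfected in 2 replicates, and no untreated library was analysed here. The study is concerned with RNAs bound by the replication origin protein ORC1 and used this ASO to deplete RNAs that contain GAA repeats. Libraries carry the numbers 232 (replicates 1) and 234 (replicates 2), and the labels give a transfection of 48 h, while the general methods of the study give a shorter time for ASOs. All 4 libraries come from the same cell line, grown in RPMI medium, and nothing in the labels says whether a number marks a shared day or culture, so p-values measure only the spread between these libraries.

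In resting cells the adaptor KEAP1 holds NRF2 in the cytoplasm and hands it to a CUL3 ubiquitin ligase for degradation. Oxidants and electrophiles modify cysteines of KEAP1, NRF2 then escapes degradation, enters the nucleus, pairs with small MAF proteins and binds antioxidant response elements near its target genes. The targets refill the glutathione and thioredoxin systems, supply NADPH, detoxify quinones and break down heme. NRF2 is controlled mostly at the level of the protein, so its own mRNA need not follow its activity.

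The ASO is a gapmer, in which 9 central DNA nucleotides (capitals) allow RNase H to cut the paired RNA and modified nucleotides (lower case) protect the ends. It is shown with its full target and with the stretches of NQO1 and HMOX1 mRNA most like that target, because these are the members with the largest fitted differences between the ASOs. In the last 2 lines capitals mark bases that match the target and lower case marks mismatches.
anti-GAA ASO: ttcttcTTCTTCTTCttcttc
target in RNA: GAAGAAGAAGAAGAAGAAGAA
NQO1: GgAtgAGgAGAAaAAcAAGAA
HMOX1: GAAGgAGgccAccAAGgAGgt

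The NQO1 stretch lies at chr16:69711049-69711069 on the minus strand of GRCh38, in coding exon 5, and matches 15 of the 21 bases. The HMOX1 stretch lies at chr22:35383133-35383153 on the plus strand, in coding exon 2, and matches 12 of 21. A perfect run of GAA, in any frame, of at least 12 nt was found in the longest transcript of 0 of the 9 members, and in 0 of the 9 over all their annotated transcripts. The longest perfect run among the longest transcripts was 9 nt, in coding exon 2 of NQO1 (chr16:69718444-69718452). GCLM held 8 nt, GCLC and ME1 7 nt, and the other 5 members 6 nt. Over 14751 tested genes with a transcript sequence, the median run was 7 nt, 20.1% held at least 9 nt and 2.54% held at least 12 nt. A best match of at least 15 of 21 bases, as found in NFE2L2, GCLM and NQO1, was present in 38.8% of the tested genes. NQO1 thus belonged to the 20.1% of genes with the longer runs, and the other members lay within 1 nt of the median.

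Antioxidant response elements were looked for as the letters TGACNNNGC on both strands, in promoter windows of RefSeq (GRCh38.p14) that reach from 250 bases before to 50 bases after a gene start. Of the 9 members, 8 had a window, and HMOX1 had none in the table used. The letters stood in windows of GCLM, ME1 and TXNRD1, that is in 4 of 10 windows of the members (40.0%) and in 13.3% of all 35116 windows. The upstream matches are shown 5′ to 3′ on the strand of the match, with the 9 letters in capitals and 10 neighbouring bases on each side in lower case.
GCLM: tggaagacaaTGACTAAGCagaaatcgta
ME1: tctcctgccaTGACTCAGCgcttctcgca
TXNRD1, upstream start: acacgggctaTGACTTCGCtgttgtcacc
TXNRD1, downstream start: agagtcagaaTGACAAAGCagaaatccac

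The capitals lie at chr1:93909456-93909464 in GCLM, chr6:83431180-83431188 in ME1, and chr12:104215680-104215688 and chr12:104286930-104286938 in TXNRD1. They begin 34, 137, 99 and 102 bases before the respective gene start. The ME1 match overlaps the letters TGACTCA, which AP-1 factors are also known to bind. One further match in ME1 and one in TXNRD1 lie at or just after the gene start. A match describes letters only, and elements of the other members may lie outside these windows.

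The libraries held between 10538284 (anti-GAA replicate 1) and 17894953 (anti-GAA replicate 2) reads on genes, with 15347298 and 15924742 in control replicates 1 and 2. Levels are given as CPM (counts scaled to library size) after TMM normalization, which also corrects for differences in library composition. Among 9 markers of colorectal epithelium, KRT19 was highest, with 1361 CPM on average. EPCAM had 641 and 628 CPM in the anti-GAA libraries and 740 and 729 CPM in the controls. KRT8 had 325 and 261 CPM against 358 and 350 CPM. CDH1 had 34.7 and 48.0 against 48.4 and 60.7 CPM, and CDX2 23.0 and 21.7 against 19.6 and 17.3 CPM. KRT20 was low, at 0.51 and 1.46 against 0.33 and 3.42 CPM. Of the 9 markers 7 were tested. VIL1 had at most 2 counts in a library, and the stem cell marker LGR5 was at 0 counts in every library. Of the 7 tested, 5 were lower with the anti-GAA ASO, with a median log2 fold change of −0.27, and KRT18 was at 224 and 308 against 389 and 388 CPM (−0.54, unadjusted p = 0.0434, adjusted p = 0.996 from edgeR). Their part in the results below was not tested. The 9 together summed to 2575 and 2909 CPM in the anti-GAA libraries and 2669 and 2914 CPM in the controls. Fibroblast markers summed to between 10.3 and 14.8 CPM, nearly all from COL1A1, with COL1A2, DCN and LUM at 0. The 6 leukocyte markers summed to at most 2.41 CPM, led by ITGAM (log2 fold change −1.61, unadjusted p = 0.0177, adjusted p = 0.996 from edgeR), with CD3E and LYZ at 0, and the 4 endothelial markers to at most 1.29 CPM, led by VWF, with PECAM1 at 0.

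Of the 9 members 8 had enough reads to be tested. The exception was SRXN1, which encodes sulfiredoxin, the enzyme that repairs overoxidized peroxiredoxins. SRXN1 had 0 counts in both anti-GAA libraries and 1 count in each control library. In GENCODE 44, 90.7% of its exon bases also belong to a read-through gene on the same strand, ENSG00000270299, which itself had 0, 1, 1 and 1 counts. These counts therefore cannot be read as the level of SRXN1 mRNA.

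**Figure D1:**
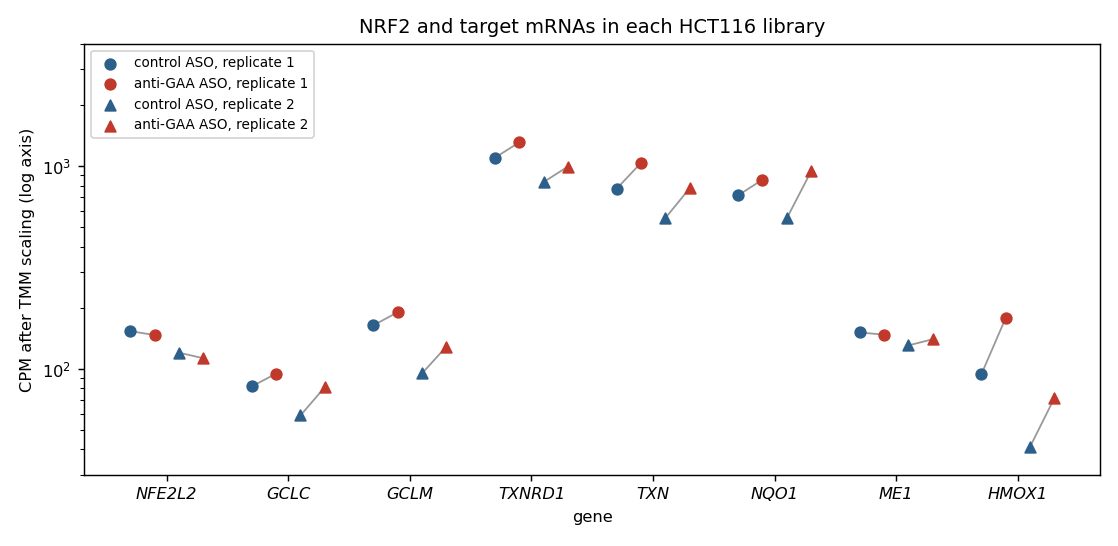
CPM after TMM scaling (log axis) of the 8 tested genes in each of the 4 libraries, with blue for the control ASO, red for the anti-GAA ASO, circles for replicates 1, triangles for replicates 2 and grey lines joining libraries of the same number. TXN and NQO1 are the genes whose red points all lie above their blue points, and HMOX1 spans the widest range, from 41.1 to 178 CPM.

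Per kilobase of the reference transcript, TXN was the most abundant member, with a mean over the 4 libraries of 1064 CPM per kb and a range of 750 to 1405. NQO1 followed at 304 CPM per kb (219 to 374) and TXNRD1 at 274 (216 to 339), and these neighbours did not differ beyond their spread. HMOX1 was at 61.8 CPM per kb (26.4 to 114), NFE2L2 at 54.5 (46.1 to 62.7) and ME1 at 42.6 (39.1 to 45.3). The range of HMOX1 covered those of both other genes. GCLM at 29.6 CPM per kb (19.4 to 38.9) and GCLC at 20.9 (15.6 to 25.0) were lowest and overlapped each other.

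With the quasi-likelihood test of edgeR (anti-GAA over control), 0 of the 8 members had an adjusted p under 0.05, and the same was true of all 15116 tested genes (0%). In bulk RNA, a change in the number of cells that express a gene and a change in its RNA per cell cannot be told apart. DESeq2 called 0 members and 3 genes in all. At an unadjusted p under 0.05 edgeR gave 0 members in either direction, against 1.02% of all genes higher and 3.46% lower, and DESeq2, run without a filter on low counts, gave 2 members higher (NQO1 and HMOX1) and 0 lower, against 0.382% and 1.25% of its 28017 genes. The fitted log2 fold change (anti-GAA over control) was above 0 in 7 of the 8 tested members, or 87.5%, against 51.6% of all tested genes. Their median was 0.31, against 0.013 over all genes. The median depended on single libraries, at 0.069 without anti-GAA replicate 1, 0.092 without control replicate 2 and 0.63 without control replicate 1.

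Compared within library numbers, 6 of the 8 members (75.0%) were higher with the anti-GAA ASO in both pairs, against 31.8% of all tested genes. The median difference in log2 CPM was 0.23 in the pair 232 and 0.45 in the pair 234, against −0.0041 and 0.020 over all genes. In 2 members (25.0%), NQO1 and TXN, both anti-GAA libraries lay above both control libraries, as in 15.5% of all genes.

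**Figure D2:**
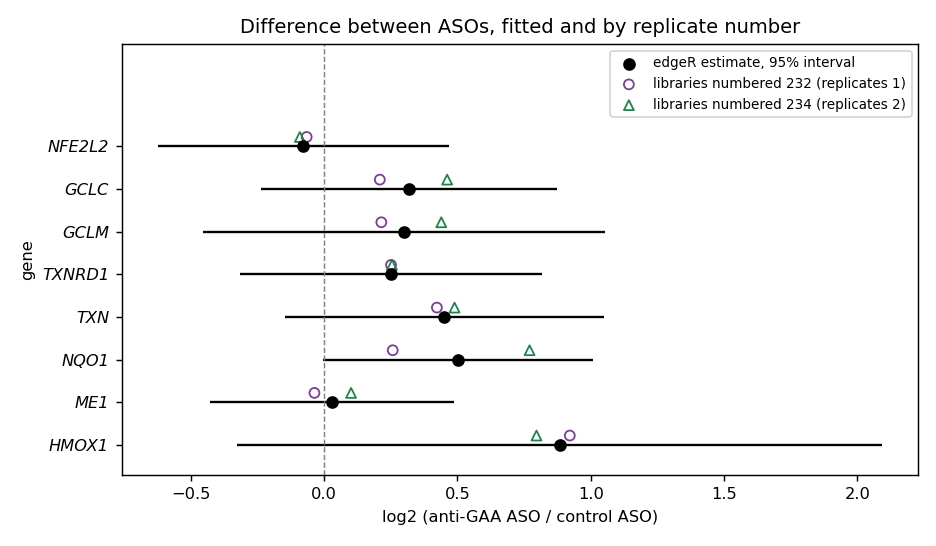
Log2 ratio of anti-GAA over control ASO (horizontal axis) for the 8 tested genes, with edgeR's estimate and 95% interval in black and the difference within each library number as open symbols. All 8 intervals include 0, that of NQO1 by the smallest margin, and HMOX1 has the widest interval, from −0.33 to 2.09.

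NFE2L2 (ENSG00000116044, chromosome 2, 177218667–177392756 on GRCh38), the regulator itself, was at 147 and 113 CPM in the anti-GAA libraries and at 153 and 120 CPM in the controls, replicate 1 being given before replicate 2 here and for each gene that follows. The values of the 2 conditions overlapped, and replicates 1 exceeded replicates 2 in either condition. Its log2 fold change was −0.078 (standard error 0.23, 95% interval −0.62 to 0.47, adjusted p = 0.996 from edgeR), with −0.066 and −0.091 in the pairs. It turned to 0.10 without control replicate 1 and to 0.10 without anti-GAA replicate 2. In GENCODE 44, 23.4% of its exon bases lie opposite HNRNPA3, and whether reads were counted by strand is not given in the sources used here.

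The glutathione genes GCLC and GCLM encode the catalytic and the modifier subunit of glutamate-cysteine ligase, which makes the first and rate-limiting step of glutathione synthesis. GCLC (ENSG00000001084, chromosome 6, 53497341–53616970) had 94.7 and 81.2 CPM in the anti-GAA libraries and 81.9 and 58.9 CPM in the controls. GCLM (ENSG00000023909, chromosome 1, 93885199–93909456) had 190 and 129 CPM against 164 and 94.9 CPM. Both subunits showed the same order of libraries, with anti-GAA replicate 1 highest, control replicate 2 lowest, and overlapping conditions. The log2 fold change of GCLC was 0.32 (standard error 0.23, 95% interval −0.24 to 0.88, adjusted p = 0.996 from edgeR). That of GCLM was 0.30 (standard error 0.32, 95% interval −0.45 to 1.06, adjusted p = 0.996 from edgeR). Within pairs, GCLC differed by 0.21 and 0.46 and GCLM by 0.21 and 0.44 on the log2 scale, so that the 2 subunits differed by nearly the same amount. GCLC was at 0.21 without anti-GAA replicate 1, 0.11 without control replicate 2 and 0.57 without control replicate 1. GCLM was at −0.00059, −0.032 and 0.74 without the same libraries.

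The thioredoxin genes TXN and TXNRD1 encode cytosolic thioredoxin, a small protein that reduces disulfides, and the NADPH-dependent selenoenzyme that recharges it. TXN (ENSG00000136810, chromosome 9, 110243810–110256507) had 1035 and 776 CPM in the anti-GAA libraries and 772 and 553 CPM in the controls. The 2 conditions did not overlap, although anti-GAA replicate 2 lay only just above control replicate 1. Its log2 fold change was 0.45 (standard error 0.25, 95% interval −0.15 to 1.05, adjusted p = 0.996 from edgeR), with 0.42 and 0.49 in the pairs. TXNRD1 (ENSG00000198431, chromosome 12, 104215779–104350307) had 1309 and 994 CPM against 1100 and 834 CPM, and its conditions overlapped. Its pairs gave 0.25 and 0.25, the closest agreement among the members, with a fitted log2 fold change of 0.25 (standard error 0.24, 95% interval −0.31 to 0.82, adjusted p = 0.996 from edgeR). This value fell to 0.048 without anti-GAA replicate 1 and 0.075 without control replicate 2, and was 0.46 without control replicate 1 and 0.44 without anti-GAA replicate 2. For TXN the same omissions gave 0.23, 0.24, 0.70 and 0.65.

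Of the genes that use or supply NADPH, NQO1 encodes the quinone reductase and is a standard readout of NRF2 activity. NQO1 (ENSG00000181019, chromosome 16, 69706996–69726668) had 857 and 942 CPM in the anti-GAA libraries and 717 and 552 CPM in the controls. Both anti-GAA libraries lay above both control libraries, and NQO1 was the only tested member whose level with the anti-GAA ASO was higher in replicate 2 than in replicate 1. Its log2 fold change was 0.50 (standard error 0.21, 95% interval −0.0027 to 1.01, unadjusted p = 0.0509, adjusted p = 0.996 from edgeR), with 0.26 and 0.77 in the pairs. It ranged from 0.33 without control replicate 2 to 0.69 without control replicate 1. ME1 (ENSG00000065833, chromosome 6, 83210402–83431051), cytosolic malic enzyme, which makes NADPH from malate, had 147 and 140 CPM against 151 and 130 CPM. The conditions overlapped and the pairs gave opposite signs, −0.037 and 0.10. Its log2 fold change was 0.029 (standard error 0.19, 95% interval −0.43 to 0.49, adjusted p = 0.996 from edgeR). It fell below 0 with scaling to total counts (−0.064), without anti-GAA replicate 1 (−0.0019) and without control replicate 2 (−0.066). Scaling to total counts also moved the median over all tested genes, from 0.013 to −0.081.

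HMOX1 (ENSG00000100292, chromosome 22, 35380361–35394214), the inducible heme oxygenase, had the largest fitted difference of the members. It had 178 and 71.5 CPM in the anti-GAA libraries and 93.8 and 41.1 CPM in the controls. Replicates 1 exceeded replicates 2 by 1.31 with the anti-GAA and by 1.19 with the control ASO on the log2 CPM scale, more than the ASOs differed, so the conditions overlapped. Within library numbers the anti-GAA library was 1.89-fold higher in the pair 232 and 1.74-fold higher in the pair 234. The log2 fold change was 0.88 (standard error 0.51, 95% interval −0.33 to 2.09, unadjusted p = 0.128, adjusted p = 0.996 from edgeR). Single libraries moved it widely, to 0.091 without anti-GAA replicate 1, 0.42 without control replicate 2, 1.40 without anti-GAA replicate 2 and 1.59 without control replicate 1. Adding the replicate number to the fit as a block changed the call for HMOX1. Its adjusted p was then 0.00833 from edgeR (log2 fold change 0.86) and 0.00335 from DESeq2. The data do not settle whether the numbers pair the libraries.

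**Figure D3:**
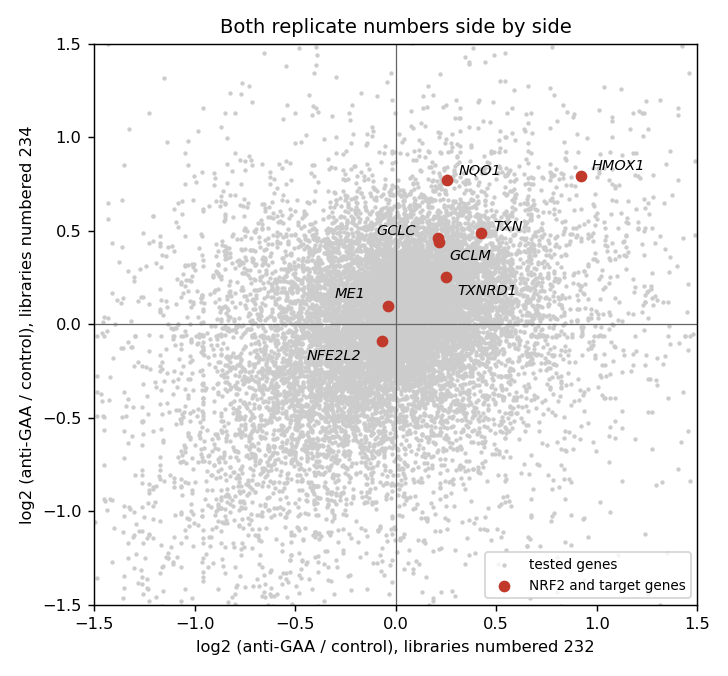
Difference in log2 CPM between anti-GAA and control ASO in the libraries numbered 232 (horizontal) and 234 (vertical), with the 8 tested members in red over all tested genes in grey, leaving out 450 genes beyond the axes. GCLC, GCLM, TXNRD1, TXN, NQO1 and HMOX1 lie in the upper right quadrant, NFE2L2 just below 0 in both pairs, and ME1 on either side of 0.

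The wider pathway was described through 6 lists holding 125 genes, of which 106 were tested. In edgeR 0 of the 106 passed the adjusted threshold, and at an unadjusted p under 0.05 there were 4 higher (against 1.02% of all tested genes) and 2 lower (against 3.46%). With the replicate number added to the fit as a block, edgeR called 258 of the 15116 tested genes. Of the 106 list genes it then called 5, all higher (SQSTM1, CHAC1, SESN2, IDH1 and SLC48A1). Without the block, the log2 fold change was above 0 in 78 of the 106 (73.6%), against 51.6% of all tested genes, with a median of 0.16. The genes named are those at an unadjusted p under 0.05 (for the list with none, the 2 with the most counts), together with a few named for their role after their values had been seen.

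Among the genes that control NRF2, 15 of 16 were tested, with 10 above 0 and a median of 0.081. The median ran from 0.031 without anti-GAA replicate 2 to 0.23 without control replicate 1. With scaling to total counts it was −0.012, against −0.081 over all tested genes. SQSTM1, the autophagy receptor p62, which sequesters KEAP1, had 48.9 and 39.9 CPM in the anti-GAA libraries and 34.1 and 20.7 CPM in the controls. The conditions of SQSTM1 did not overlap, and its log2 fold change was 0.70 (standard error 0.29, unadjusted p = 0.0463, adjusted p = 0.996 from edgeR). NFE2L3, a related transcription factor, was lower in both anti-GAA libraries, at 26.7 and 23.0 against 35.0 and 35.1 CPM, with a log2 fold change of −0.50 (unadjusted p = 0.0454, adjusted p = 0.996 from edgeR). KEAP1 was at 0.056 and MAFG, the most abundant small MAF here, at 0.39 (standard error 0.41). BACH1, a repressor that competes for antioxidant response elements at HMOX1 in particular, was at −0.28 (standard error 0.25). KEAP1, MAFG and BACH1 each had an adjusted p of 0.996 from edgeR.

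Of the other glutathione genes 29 of 33 were tested, with 21 above 0 and a median of 0.15. It was 0.081 without anti-GAA replicate 1 (16 of 29 above 0), 0.093 without control replicate 1 and 0.094 without anti-GAA replicate 2. With scaling to total counts it was 0.055, against −0.081 over all tested genes. GSR, which regenerates reduced glutathione, had 322 and 240 CPM with the anti-GAA ASO against 237 and 193 CPM, with a log2 fold change of 0.38 (standard error 0.23, adjusted p = 0.996 from edgeR). SLC7A11, which imports cystine for glutathione synthesis and is a known NRF2 target, was at 0.13 (standard error 0.41). CHAC1, which degrades glutathione, had 43.9 and 15.01 CPM against 19.0 and 8.61 CPM, a log2 fold change of 1.09 (standard error 0.56), with overlapping conditions. At an unadjusted p under 0.05 stood 1 gene, ABCC4, an efflux pump, which had 14.5 and 18.9 CPM against 24.1 and 26.2 CPM (log2 fold change −0.58, unadjusted p = 0.0427, adjusted p = 0.996 from edgeR).

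Of the other thioredoxin genes 22 of 24 were tested, with 17 above 0 and a median of 0.19. With scaling to total counts 12 were above 0 and the median was 0.093. Under that scaling 39.0% of all tested genes were above 0, with a median of −0.081. SESN2, a sestrin that responds to stress, had 136 and 71.1 CPM with the anti-GAA ASO against 68.5 and 49.1 CPM, and a log2 fold change of 0.82 (standard error 0.34, unadjusted p = 0.0484, adjusted p = 0.996 from edgeR). PRDX1, the abundant cytosolic peroxiredoxin that thioredoxin recharges, had 3317 and 2381 CPM against 2486 and 1722 CPM, and a log2 fold change of 0.44 (standard error 0.27). PRDX2 differed far more between replicates than between ASOs, with 17.5 and 123 CPM against 29.1 and 119 CPM. TXNRD2, the mitochondrial reductase, was at −0.45 (standard error 0.33), with a 95% interval that included 0. TXNIP, the inhibitor of thioredoxin, was listed at 0 in every library under its GENCODE identifier. Reads were counted on hg19 genes, and whether TXNIP reads stand under another identifier there was not examined. This 0 therefore cannot be read as the level of its mRNA.

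Of the NADPH genes 16 of 18 were tested, with 14 above 0 and a median of 0.14. The median was 0.30 without anti-GAA replicate 1 and 0.057 without anti-GAA replicate 2. With scaling to total counts it was 0.049 (10 of 16 above 0), against −0.081 over all tested genes (39.0% above 0). IDH1, which makes cytosolic NADPH from isocitrate, had 38.0 and 49.3 CPM with the anti-GAA ASO against 28.6 and 23.8 CPM, without overlap. Its log2 fold change was 0.74 (standard error 0.23, unadjusted p = 0.0156, adjusted p = 0.987 from edgeR). PGD, an NADPH-making enzyme of the pentose phosphate pathway, was at 0.31 (standard error 0.19) and the transketolase TKT at 0.45 (standard error 0.25), and neither passed the threshold.

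Of the heme and iron genes 9 of 11 were tested, with 5 above 0 and a median of 0.0089. The median was −0.060 without anti-GAA replicate 1 and in DESeq2, and −0.085 with no filter. With scaling to total counts it was −0.082, against −0.081 over all tested genes. SLC48A1, a heme transporter, had 33.6 and 24.2 CPM with the anti-GAA ASO against 16.8 and 16.0 CPM, without overlap, and a log2 fold change of 0.82 (standard error 0.24, unadjusted p = 0.0126, adjusted p = 0.951 from edgeR). HMOX2, the constitutive heme oxygenase, was at −0.072 (standard error 0.20) beside the 0.88 of HMOX1. The ferritin light chain FTL had 7187 and 4332 CPM against 5545 and 2994 CPM, ordered by library as HMOX1 was. FTH1, the ferritin heavy chain, was listed at only 2.63 to 3.91 CPM, and its value is uncertain, since the genome holds many near-identical copies and how reads that fit several copies were counted is not given in the sources used here.

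Of the detoxification genes 15 of 23 were tested, with 11 above 0 and a median of 0.28, and 0 at an unadjusted p under 0.05 in edgeR. Without anti-GAA replicate 1 the median was −0.027 (8 of 16 above 0), and without control replicate 2 it was 0.15. NQO2, the relative of NQO1, had 190 and 130 CPM with the anti-GAA ASO against 141 and 109 CPM, and a log2 fold change of 0.36 (standard error 0.25). ALDH3A2, an aldehyde dehydrogenase, was at −0.034 (standard error 0.19). AKR1C1 and AKR1C2, near-identical aldo-keto reductases that are strong NRF2 targets in many human cells, had at most 9 counts in a library and were not tested.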

How the data were processed

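The authors deposited whole-number counts per gene, not normalized, made by trimming with Trimmomatic, aligning with STAR, removing reads on GL contigs and counting with featureCounts on Ensembl genes of hg19. All 4 columns were used, and 0 were left out. For the libraries, the labels name a kit for total RNA, but the methods one for stranded mRNA. The study used DESeq2 with the control ASO as the reference.

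Here genes kept by filterByExpr (15116) were TMM-normalized and tested with edgeR 4.0.16 (quasi-likelihood F-test, ASO as the only term) in R 4.3.3, with Benjamini-Hochberg adjustment over all tested genes. Standard errors are the fold change over the root of F. For pair differences, 2 was the prior count of log2 CPM. Symbols, positions (GRCh38) and transcripts came from GENCODE 44, which held 52181 of the 63677 identifiers, and no position was carried over from hg19. Levels per kb used the MANE Select transcript.

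The members and lists were chosen with earlier results of these data known. The genes named are all members, list genes at an unadjusted p under 0.05 or otherwise the 2 with the most counts, the listed markers, and the 3 genes nearest the members in profile. Further list genes, KEAP1 and GSR among them, were named for their role after their values had been seen. Alternatives were DESeq2 1.42.0, other scalings and filters, each library left out, a replicate block, and offsets for transcript length and GC content (mgcv 1.9.3).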

Additional observations from a re-analysis of the deposited data

How the results depend on the processing

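With 2 libraries a condition and 10538284 to 17894953 counts a library, 0 of 8 members had an adjusted p under 0.05 in edgeR without a block. The replicate numbers are shared by both conditions. In a principal component analysis of log2 CPM, the first axis held 52.7% of the variance and separated the numbers. The anti-GAA and control libraries lay at −41.4 and −22.2 for 232, and at 26.2 and 37.4 for 234. The second axis (33.1%) separated the ASOs. Same-numbered libraries deviated together from their condition means (r = 0.564 across genes, which are not independent), but with 2 pairs the data do not settle whether the numbers pair the libraries. With the replicate block, edgeR called 258 genes (207 lower, 51 higher) in place of 0, 1 member, HMOX1 (log2 fold change 0.86, adjusted p = 0.00833, against 0.0927 or more in the alternatives without a block), and 5 genes of the pathway lists, all higher (SQSTM1, CHAC1, SESN2, IDH1 and SLC48A1). DESeq2 with the block called 55 genes, 1 member (HMOX1, adjusted p = 0.00335) and 2 list genes (CHAC1 and SESN2), and the block with the length and GC offsets called 390 genes, 1 member (HMOX1, adjusted p = 0.00235) and 5 list genes. In the block fit of edgeR, GCLC, GCLM, TXN and NQO1 had adjusted p of 0.247, 0.255, 0.142 and 0.134.

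Without the block, DESeq2 called 3 genes and edgeR with no filter 116. Leaving out each library gave between 0 and 18 genes, between 0 and 2 list genes, and a median of the members from 0.069 to 0.63. The single members that changed sign were NFE2L2 (−0.27 to 0.10 over the libraries left out), GCLM (−0.032 to 0.74) and ME1 (−0.066 to 0.13, and −0.064 with scaling to total counts). The median of the heme and iron list was −0.060 in DESeq2 and with its block, −0.082 with total counts, −0.085 with no filter and −0.076 to 0.023 over the libraries left out. That of the detoxification list was −0.027 to 0.36 over the same libraries, and that of the NRF2 control genes −0.012 with total counts, where the median of all genes was −0.081. The medians of the glutathione, thioredoxin and NADPH lists stayed above 0 (from 0.055, 0.093 and 0.049 with total counts). Scaling to total counts moved the median of all genes as well, from 0.013 to −0.081. The cause of the shifts in the lists was not tested. Searching promoters for TGANNNNGC in place of TGACNNNGC gave 5 of 8 members. These letters stood in 6 of 10 windows of the members (60%), against 41.8% of all windows. The number of members above 0 (5 to 8 over all fits), the pair counts and the GAA runs were within 1.5 times their values under each alternative tried.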

Other observations

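The 3 tested genes outside the members whose profiles over the 4 libraries lay nearest to the mean profile of the members (Euclidean distance between centred log2 CPM values) were TNFRSF1A, MRPS5 and EMD, at distances of 0.038, 0.042 and 0.046. TNFRSF1A, a receptor for tumor necrosis factor, had 105 and 77.8 CPM in the anti-GAA libraries and 84.4 and 58.0 CPM in the controls. With 4 libraries many profiles are alike, and 1044 tested genes lay within 0.3 of the mean profile.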
